A study of Mus musculus with 68 samples.

Results

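The tumours compared here grew in mice whose Apc gene was intact and whose Cftr gene was deleted in the intestine: 2 duodenal tumours against 1 colon tumour. They were chosen by their specimen names and labels, not by any expression value, and are 3 of the 23 specimens and 12 of the 68 deposited columns of the study. Every group is on the C57BL/6 background and labelled 3 month. The tumours come from the Cftrfl/fl-Villin-Cre line with wildtype Apc, in which Cre is driven by the Villin promoter, so that Cftr is deleted in the epithelium of the intestine and not in its stroma. Duodenal tumour 1 came from 1 animal, and duodenal tumour 2 and the colon tumour came from another. The design text speaks of several colon tumours, but the samples analysed here hold 1, so the colon arm has no replicate and its spread is taken to be that of the other groups. Normal duodenum and colon of 2 further Cftr knockout animals, and 2 duodenal and 2 colon tumours of ApcMin Cftr heterozygous mice, served to set the tumour difference against other organ differences. The fit also took its spread from ApcMin Cftr knockout and ApcMin Cftr wildtype tumours of colon and ileum and from normal duodenum and colon of Cftr wildtype mice. The separate fit for the heterozygous comparison held run 1 alone, where those ApcMin Cftr knockout and ApcMin Cftr wildtype tumours were not read. The labels call the heterozygous mice CFTR knockdown, and each pair of their tumours came from a single animal.

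Cftr encodes the chloride and bicarbonate channel of the gut epithelium, and Apc restrains Wnt signalling. Loss of Apc starts most intestinal tumours in mice and people. Along the gut, duodenal and jejunal enterocytes carry the machinery for digesting and absorbing fat, sugar and peptides under factors such as GATA4, PDX1 and the HNF4 proteins, whereas colonocytes absorb salt and water and keep a posterior Hox code. Paneth cells sit in small intestinal crypts and are rare in normal colon. The comparison asks how far tumours of the same genotype from the 2 organs differ, and whether they differ in the way the normal organs do.

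Expression was measured by polyA RNA-seq and deposited as FPKM, the number of mapped fragments per transcript length and library size. Each of the 3 tumours was read in 2 runs on 2 lanes each, and its columns were averaged on the log2(FPKM + 1) scale. FPKM holds no counts, so the depth behind a value is unknown; the relative depth read from the steps of low values spanned 1.34-fold over the 12 tumour columns. Column sums ran between 497707 and 760054 FPKM.

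Run 1 of 2 tumours differed from run 2 in a directed way. Over 13 colon genes, defined as at 20 FPKM or more in the colon tumour and at 1% or less of that in both duodenal tumours in run 2, duodenal tumour 1 stood at a median of 5.34% of the colon tumour's level in run 1 (quartiles 5.11% and 5.92%) and at 0.424% in run 2. Duodenal tumour 2 stood at 0.0549% in run 1 and 0.389% in run 2. The 93 duodenal genes were defined in run 2 from duodenal tumour 1 and the colon tumour alone. They were at 20 FPKM or more in duodenal tumour 1 and at 1% or less of that in the colon tumour. Over these genes the colon tumour stood at 1.84% of duodenal tumour 1 in run 1 and at 0.227% in run 2. The run 2 shares are low by the definition of the genes. Hoxb13, for example, was 11.0 FPKM in run 1 and 0.959 FPKM in run 2 of duodenal tumour 1. The Y-linked Eif2s3y, which was not used to define those genes, was 1.69 FPKM in run 1 and 0.0783 FPKM in run 2 of duodenal tumour 1, where Xist was 34.2 FPKM. It was 40.9 FPKM in duodenal tumour 2 and 36.1 FPKM in the colon tumour. The cause was not tested. For genes that 1 organ hardly expresses, the run 2 level is given below beside the mean of both runs.

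**Figure D1:**
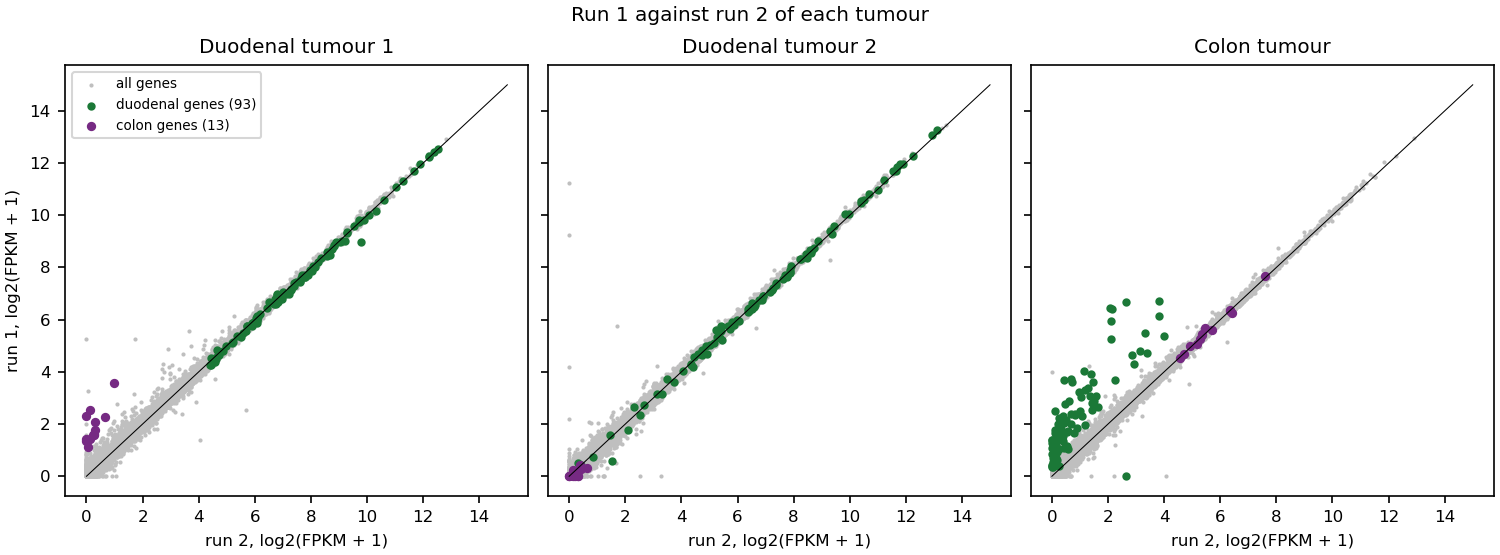
Gene expression in run 1 (y axis) against run 2 (x axis), both as log2(FPKM + 1), for duodenal tumour 1, duodenal tumour 2 and the colon tumour; grey points are all genes, green points the 93 duodenal genes and purple points the 13 colon genes. The purple genes lie above the diagonal in duodenal tumour 1 (median 5.34% of the colon tumour's level in run 1), and the green genes lie above it in the colon tumour (1.84%).

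Of 14098 genes tested, 2461 (17.5%) were higher and 2690 (19.1%) lower in the duodenal tumours than in the colon tumour at an adjusted p under 0.05, by limma with Benjamini-Hochberg adjustment over all genes. Together these 5151 genes are 36.5% of those tested. Differences are given as log2 ± SE on the log2(FPKM + 1) scale, which understates the change of genes at a low level. From the run 2 libraries alone the share was 36.3%, with 4722 of the genes called again in the same direction. With duodenal tumour 2 left out 3292 genes were called, and from the 3 tumours with no other group in the fit 1719 were. P-values measure the spread between specimens of a group, which for every ApcMin group are tumours of 1 animal.

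Cftr itself was measured at 53.5 and 77.2 FPKM in the duodenal tumours and 11.2 FPKM in the colon tumour. Both duodenal tumours lay above the colon tumour, with a log2 difference of 2.41 ± 0.42 (SE; adjusted p = 8.79e-04). The normal Cftr knockout duodenum had 33.0 and 47.2 FPKM and the normal Cftr knockout colon 30.5 and 25.9 FPKM, against 31.3 and 32.0 FPKM in the wildtype duodenum and 22.2 and 21.7 FPKM in the wildtype colon. A gene-level FPKM does not check the deletion of an exon, and none of these values tells a deleted from an intact allele. Cftr also overlaps an annotated antisense gene, Gm15592, and whether the libraries kept the strand is not given in the sources used here. Apc was 11.8 and 15.5 FPKM in the duodenal tumours and 11.3 FPKM in the colon tumour, a log2 difference of 0.24 ± 0.17 that did not pass the test (adjusted p = 0.293).

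Most of the 12 genes furthest above the colon tumour encode known products of upper intestinal enterocytes. Akp3, a duodenal alkaline phosphatase, was 162 and 4977 FPKM in the duodenal tumours and 1.33 FPKM in the colon tumour, with a log2 difference of 8.71 ± 1.61 (adjusted p = 0.0014). The duodenal tumours differed widely between themselves in this gene, yet both lay far above the colon tumour, which held 0.452 FPKM in run 2. Alpi, the neighbouring intestinal alkaline phosphatase gene, was 1044 and 3248 FPKM in the duodenal tumours and 8.26 FPKM in the colon tumour (8.26 ± 0.98, adjusted p = 7.63e-05). As Akp3 and Alpi are close paralogs, reads may have been split between them.

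Prap1, a lipid-binding protein secreted in the upper gut, was 3929 and 9395 FPKM in the duodenal tumours and 32.3 FPKM in the colon tumour (3.27 FPKM in run 2), with a log2 difference of 8.54 ± 0.95 (adjusted p = 5.14e-05). It overlaps Fuom on the other strand. The apolipoproteins Apoa4, Apoa1 and Apoc3, which coat newly made lipoproteins, differed by 7.79 ± 1.38, 7.58 ± 1.33 and 6.91 ± 0.93. Fabp1, a fatty acid carrier of enterocytes and liver, was 4762 and 3164 FPKM in the duodenal tumours and 44.6 FPKM in the colon tumour, where it was 86.0 FPKM in run 1 and 3.21 FPKM in run 2. Its log2 difference was 7.68 ± 1.88 over both runs (adjusted p = 0.00734). The others of the 12 were Reg1, a secreted lectin (8.46 ± 2.01), the drug-metabolising Cyp3a11 (7.65 ± 0.89), the sulfate carrier Slc13a1 (6.90 ± 0.79), Gm766 (8.25 ± 1.72) and Anxa10. In run 1 alone Reg1, Apoa4, Fabp1 and Apoa1 missed the threshold (adjusted p = 0.0873, 0.0846, 0.141 and 0.0835), and Akp3 did when only the 3 tumours were fitted (0.101).

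Anxa10, an annexin of stomach epithelium, was 207 and 391 FPKM in the duodenal tumours and 1.61 FPKM in the colon tumour (0.176 FPKM in run 2), a log2 difference of 7.04 ± 1.09 (adjusted p = 4.61e-04). The normal Cftr knockout duodenum held only 0.668 and 0.525 FPKM.

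The 12 genes furthest below the colon tumour were led by posterior Hox genes and colonocyte genes. Hoxb13, the most posterior gene of its cluster, was 5.98 and 0.174 FPKM in the duodenal tumours and 196 FPKM in the colon tumour (-6.37 ± 1.55, adjusted p = 0.00704). Car1, a carbonic anhydrase of colonocytes, was 12.2 and 1.29 FPKM in the duodenal tumours and 369 FPKM in the colon tumour (-6.23 ± 2.03, adjusted p = 0.0297). Hoxd13 was 2.00 and 0.0473 FPKM in the duodenal tumours and 79.6 FPKM in the colon tumour (-5.72 ± 1.83, adjusted p = 0.028). Saa1, an acute-phase apolipoprotein, was 19.7 and 9.64 FPKM in the duodenal tumours and 605 FPKM in the colon tumour (-5.80 ± 1.50, adjusted p = 0.00977). In all 4 genes the duodenal tumours lay far below the colon tumour in both runs.

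The rest of the 12 were the secretory granule protein Sycn (-5.64 ± 1.46), the keratin Krt36 (-5.48 ± 0.94), the amino acid carrier Slc6a14 (-5.45 ± 0.81), 2610528A11Rik (-5.38 ± 0.81), the matrix protein Thbs4 (-5.36 ± 0.85), Sval1 (-5.16 ± 0.87), the transglutaminase Tgm3 (-5.07 ± 1.35) and the kallikrein Klk15 (-5.03 ± 1.26). Klk15 overlaps Gm44756. With duodenal tumour 2 left out, Car1, Hoxd13, Sycn and Tgm3 missed the threshold (adjusted p = 0.142, 0.109, 0.0590 and 0.0564). When only the 3 tumours were fitted, Car1 and 2610528A11Rik did so (adjusted p = 0.0609 and 0.0543), with the spread taken from tumour groups alone Car1 and Hoxd13 (0.0693 and 0.0613), and in run 1 alone Hoxd13 (0.0501).

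**Figure D2:**
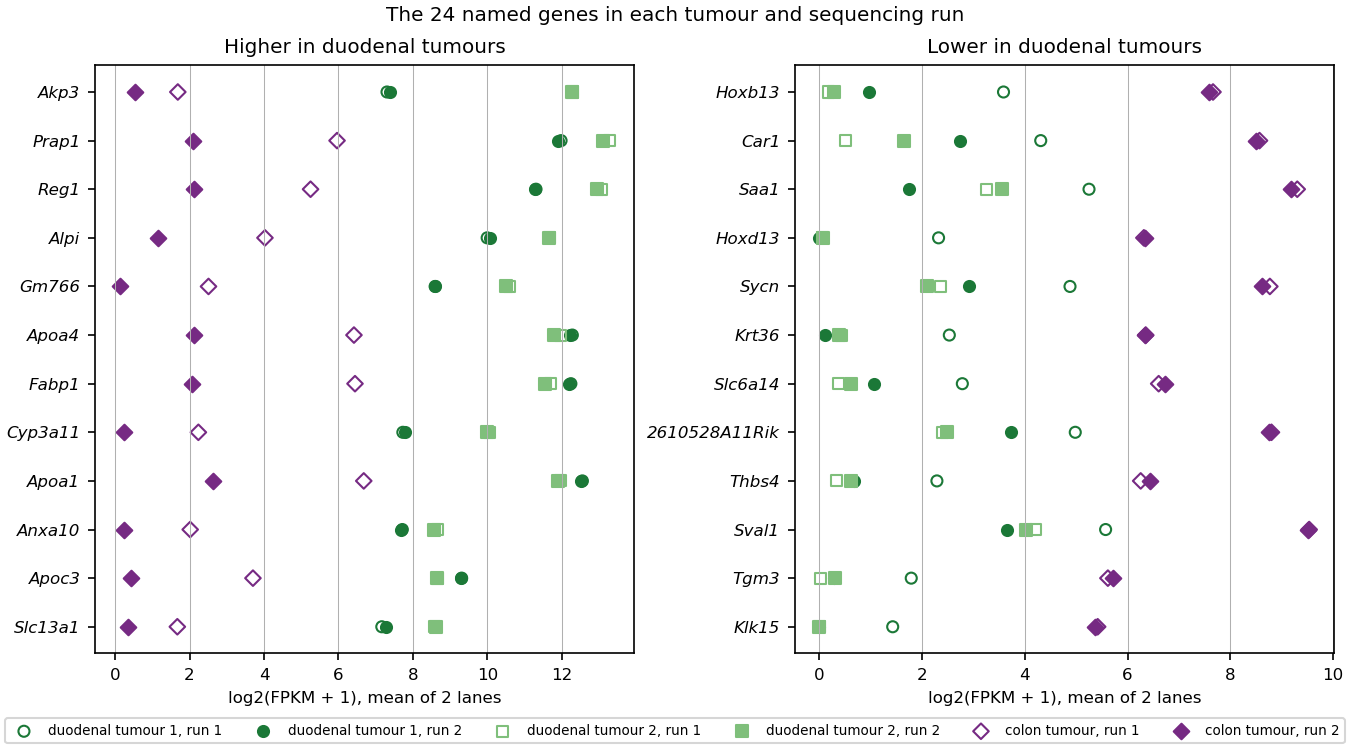
The 12 genes furthest above and the 12 furthest below the colon tumour, as log2(FPKM + 1) (x axis) in each tumour; open symbols are run 1 and filled symbols run 2. Each gene keeps both duodenal tumours on one side of the colon tumour in both runs, as the rule for naming asked, and the open and filled symbols of Fabp1 in the colon tumour (86.0 and 3.21 FPKM) stand apart.

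Most genes of the proximal identity list were higher in the duodenal tumours. The list holds transcription factors and 1 protease, Tmprss15 or enteropeptidase, which the brush border list counts too. Of 14 tested, 10 were higher and 1 lower, with a median log2 difference of 2.00 over the list against -0.01 over all genes. Gata4, the transcription factor that holds jejunal against ileal fate, was 59.1 and 82.4 FPKM in the duodenal tumours and 0.532 FPKM in the colon tumour (5.58 ± 0.71, adjusted p = 1.30e-04). Pdx1, a factor of duodenum and pancreas, was 14.0 and 69.4 FPKM in the duodenal tumours and 0.194 FPKM in the colon tumour (4.77 ± 0.74, adjusted p = 4.47e-04). Both factors were near 0 in the colon tumour and high in the 2 tumours labelled duodenal, and Pdx1 differed several fold between these.

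Hnf4g, a nuclear receptor of enterocytes, was 84.5 and 87.4 FPKM in the duodenal tumours and 6.14 FPKM in the colon tumour, where it was low but present (3.61 ± 0.29, adjusted p = 6.41e-06). Creb3l3, a membrane-bound factor for lipid genes, was 208 and 236 FPKM in the duodenal tumours and 5.26 FPKM in the colon tumour (5.21 ± 0.49, adjusted p = 1.91e-05). Gata6, made in both organs, was 38.1 and 35.1 FPKM in the duodenal tumours and 14.3 FPKM in the colon tumour (1.29 ± 0.14, adjusted p = 5.03e-05). In these 3 genes the duodenal tumours lay close together and above the colon tumour.

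The distal list held mainly Hox genes of clusters a, b, c and d, with Cdx2. Of 19 tested, 13 were lower in the duodenal tumours and 1, Cdx2, was higher, with a median log2 difference of -2.52. The number lower was 5 without duodenal tumour 2 and 6 with the spread from tumour groups alone. Cdx2 was not called with either duodenal tumour left out, with no filter, after quantile normalisation or with the spread from tumour groups alone. Hoxa13 was 0.665 and 0.0187 FPKM in the duodenal tumours and 12.9 FPKM in the colon tumour (-3.45 ± 0.41, adjusted p = 7.47e-05). Hoxa10 was 1.57 and 0.0540 FPKM in the duodenal tumours and 21.0 FPKM in the colon tumour (-3.75 ± 0.57, adjusted p = 4.27e-04). Both lay under 2 FPKM in the duodenal tumours, and duodenal tumour 1 still held 1.14 FPKM of Hoxa10 in run 2. Hoxb6, Hoxb8 and Hoxc8 were under 1 FPKM in all 3 tumours.

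Hoxb13 and Hoxd13 stood differently in normal colon. Hoxb13 was 196 FPKM in the Cftr knockout colon tumour, 89.9 and 239.9 FPKM in the normal Cftr knockout colon and 224 and 252 FPKM in the heterozygous colon tumours. Hoxd13 was 79.6 FPKM in the Cftr knockout colon tumour, 0.893 and 4.03 FPKM in the normal colon and 1.48 and 70.5 FPKM in the heterozygous colon tumours, so it was high in the Cftr knockout colon tumour and in 1 of the 2 heterozygous ones. Hoxd13 lies at chr2:74668310-74671599 on the plus strand of GRCm38.

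**Figure D3:**
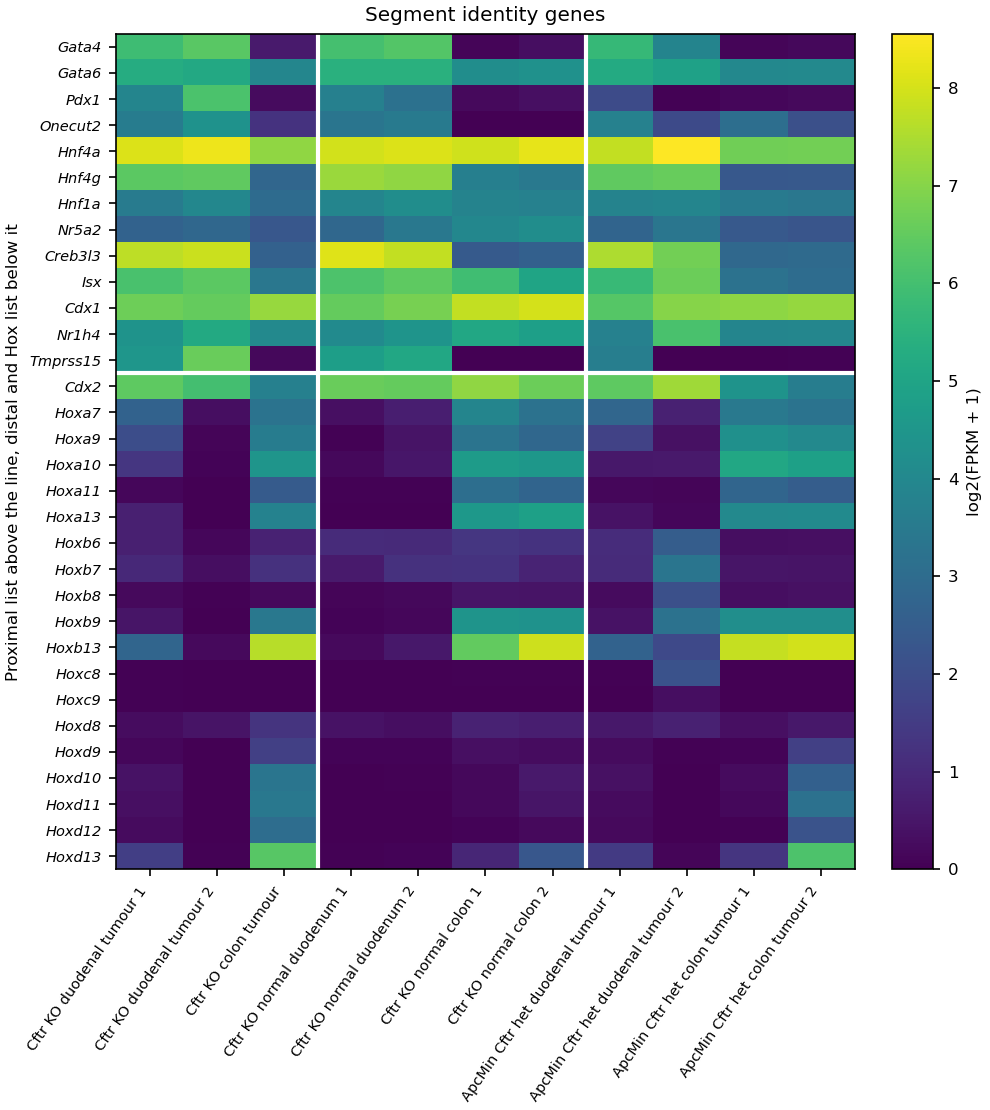
Heat map of the segment identity genes reported here as log2(FPKM + 1) (colour scale), with one column per specimen; proximal factors stand above the line and the distal and Hox list below it. Gata4 and Pdx1 are near 0 in the colon tumour (0.532 and 0.194 FPKM), and Hoxb13 and Hoxa13 are high in it (196 and 12.9 FPKM).

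Promoter sequence was read for the called members of the proximal, distal and brush border lists, to show what lies at the start sites of the genes that differed, 30 of them higher and 14 lower in the duodenal tumours. Of these 44 genes 33, 23 higher and 10 lower, had an entry in the RefSeq table (GRCm38.p6), each covering 300 bases, 250 before and 50 after the start. Both of the following were among the 4 with the smallest p; capitals mark the GATA motif, AGATAA or its reverse complement TTATCT. Creb3l3 is at chr10:81092542-81092841 on the minus strand and Mgam, the brush border maltase-glucoamylase, at chr6:40628581-40628880 on the plus strand.
Creb3l3: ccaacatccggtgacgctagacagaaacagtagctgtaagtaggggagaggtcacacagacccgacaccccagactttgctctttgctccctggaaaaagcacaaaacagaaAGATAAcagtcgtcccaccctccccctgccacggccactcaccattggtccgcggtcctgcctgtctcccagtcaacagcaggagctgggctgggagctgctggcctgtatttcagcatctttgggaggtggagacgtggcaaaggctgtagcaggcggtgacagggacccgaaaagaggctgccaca
Mgam: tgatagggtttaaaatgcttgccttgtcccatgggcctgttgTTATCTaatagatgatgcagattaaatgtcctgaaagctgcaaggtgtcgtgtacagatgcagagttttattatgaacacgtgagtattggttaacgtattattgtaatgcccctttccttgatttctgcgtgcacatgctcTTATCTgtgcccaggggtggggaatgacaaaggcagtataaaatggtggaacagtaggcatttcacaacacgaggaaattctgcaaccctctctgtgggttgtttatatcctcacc
The promoters of Slc5a1 and Slc6a19, the other 2 of the 4, held no GATA, HNF1 or CDX motif as spelled here. On either strand, AGATAA was in 6 of the 23 promoters of higher genes (26.1%), 0 of the 10 of lower genes and 11.2% of all 32851 promoters of that length. The HNF1 motif GTTAAT was in 4 of 23 (17.4%), 3 of 10 and 7.10% of all. TTTATG, a CDX motif, was in 2 of 23 (8.70%), 1 of 10 and 11.9% of all. The motifs share no stretch that would let one count as another. These shares describe letters in a window and no binding was measured.

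Genes of digestion and uptake had the largest median difference among the 41 lists. Of 24 brush border genes 20 were higher in the duodenal tumours and 0 lower, with a median log2 difference of 4.81. Slc5a1, the sodium-glucose cotransporter SGLT1, was 763 and 627 FPKM in the duodenal tumours and 28.6 FPKM in the colon tumour (4.56 ± 0.37, adjusted p = 7.32e-06). Slc6a19, the neutral amino acid carrier, was 209.8 and 152 FPKM in the duodenal tumours and 1.73 FPKM in the colon tumour (6.24 ± 0.60, adjusted p = 2.08e-05). In both the duodenal tumours lay within 2-fold of each other and far above the colon tumour. Mgam, whose promoter is printed above, was 265 and 329 FPKM in the duodenal tumours and 32.9 FPKM in the colon tumour (3.13 ± 0.31, adjusted p = 2.62e-05). The trehalase Treh and the fructose carrier Slc2a5 differed by 6.15 ± 0.68 and 4.99 ± 0.53. Cubn, a receptor best known from the ileum and kidney, was under 1 FPKM in all 3 tumours.

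Of 20 genes of fat absorption 16 were higher in the duodenal tumours and 0 lower, with a median log2 difference of 4.27. Dgat1, which makes triglyceride, was 352 and 318 FPKM in the duodenal tumours and 19.4 FPKM in the colon tumour (4.06 ± 0.24, adjusted p = 1.77e-06). Mogat2, the enzyme before it, was 196 and 208 FPKM in the duodenal tumours and 2.42 FPKM in the colon tumour (6.09 ± 0.55, adjusted p = 1.48e-05). Mttp, which loads lipid onto apolipoprotein B, was 557 and 641 FPKM in the duodenal tumours and 5.45 FPKM in the colon tumour (6.89 ± 0.79, adjusted p = 6.33e-05); it overlaps Trmt10a. The 3 proteins act one after another in making chylomicrons, and in each gene the duodenal tumours lay close together. Acsl5, Slc27a4 and the cholesterol carrier Npc1l1 differed by 3.49 ± 0.24, 3.37 ± 0.32 and 5.72 ± 0.66. Fatty acid oxidation and ketone genes differed less, with 11 of 18 higher, 0 lower and a median of 1.24; Cpt2, the inner carnitine transferase, was 79.6 and 106 FPKM in the duodenal tumours and 29.7 FPKM in the colon tumour (1.60 ± 0.19, adjusted p = 7.62e-05).

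Detoxification genes were mostly higher, with 22 of 34 higher, 1 lower and a median log2 difference of 2.86. Akr1b7, an aldo-keto reductase, was 123 and 182 FPKM in the duodenal tumours and 2.40 FPKM in the colon tumour (5.54 ± 0.32, adjusted p = 1.65e-06). Cyp3a25 was 112 and 236 FPKM in the duodenal tumours and 1.25 FPKM in the colon tumour (6.41 ± 0.58, adjusted p = 1.43e-05). Both were low in the colon tumour. Close copies in the Cyp3a and Ugt2b families may have shared reads.

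For the counts of iron, calcium and bile acid genes, the shares over all genes tested are 17.5% higher and 19.1% lower. Of 12 genes of iron and calcium uptake 4 were higher and 2 lower. Cybrd1, the duodenal ferric reductase, was 13.5 and 89.6 FPKM in the duodenal tumours and 0.668 FPKM in the colon tumour (4.44 ± 0.88, adjusted p = 0.00221). Steap4, another metalloreductase, was 2.05 and 1.77 FPKM in the duodenal tumours and 40.6 FPKM in the colon tumour (-3.89 ± 0.63, adjusted p = 5.94e-04). The calcium channel Trpv6 was lower as well (-2.94 ± 0.85, adjusted p = 0.0179). With duodenal tumour 1 left out 8 of the 12 were higher. Of 10 bile acid genes 4 were higher, led by the export pump Abcc2 (4.46 ± 0.68, adjusted p = 4.07e-04), and 2 were without duodenal tumour 2.

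Colonocyte genes of salt, water and surface were lower in part. Of 25 tested 11 were lower and 1 higher, with a median log2 difference of -1.31. Scnn1b, a subunit of the epithelial sodium channel, was 0.166 and 0 FPKM in the duodenal tumours and 3.74 FPKM in the colon tumour (-2.13 ± 0.28, adjusted p = 1.60e-04). Aqp4, a water channel, was 2.93 and 1.82 FPKM in the duodenal tumours and 37.6 FPKM in the colon tumour (-3.54 ± 0.63, adjusted p = 0.00116). Hsd11b2, which protects the mineralocorticoid receptor, was 15.3 and 20.8 FPKM in the duodenal tumours and 104 FPKM in the colon tumour (-2.48 ± 0.52, adjusted p = 0.00302). Scnn1b was under 1 FPKM in both duodenal tumours, and Aqp4 and Hsd11b2 were low but present there. Without duodenal tumour 2 the number lower was 7. Krt20, a keratin of differentiated epithelium, was the 1 higher member (2.77 ± 0.59, adjusted p = 0.00347).

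Transporters and regulators that work with CFTR were higher in part. Of 20 tested 7 were higher and 3 lower, with a median log2 difference of 0.38. Over all genes tested 17.5% were higher and 19.1% lower, so the share called lower in this list was under that of all genes. Slc26a6, a chloride-bicarbonate exchanger of the upper gut, was 107 and 191 FPKM in the duodenal tumours and 1.74 FPKM in the colon tumour (5.79 ± 0.50, adjusted p = 9.27e-06). Slc9a3r1, the scaffold NHERF1 that binds CFTR, was 485 and 527 FPKM in the duodenal tumours and 64.0 FPKM in the colon tumour (2.96 ± 0.47, adjusted p = 5.43e-04). Guca2b, the secreted peptide uroguanylin, was 1598 and 255 FPKM in the duodenal tumours and 39.5 FPKM in the colon tumour (4.05 ± 0.75, adjusted p = 0.00149). Both duodenal tumours lay above the colon tumour in the 3 genes. Best2 and Ano1, calcium-activated anion channels, were lower (-3.81 ± 0.85 and -1.83 ± 0.42).

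Hormone genes known from the upper gut were higher in the duodenal tumours. Of 16 enteroendocrine genes 7 were higher and 1 lower, against 17.5% higher and 19.1% lower over all genes tested. Gip, the incretin of duodenal K cells, was 68.1 and 62.1 FPKM in the duodenal tumours and 0.913 FPKM in the colon tumour (5.24 ± 0.89, adjusted p = 8.39e-04). Cck, the hormone of I cells, was 25.3 and 28.1 FPKM in the duodenal tumours and 2.56 FPKM in the colon tumour (3.02 ± 0.38, adjusted p = 1.17e-04). Ghrl and Sct, the genes of ghrelin and secretin, differed by 3.80 ± 0.57 and 4.67 ± 0.77. Insl5, a peptide of colonic L cells, was 0.487 and 0.134 FPKM in the duodenal tumours and 12.4 FPKM in the colon tumour (-3.37 ± 0.93, adjusted p = 0.0133). In bulk samples fewer cells of a type and less RNA per cell cannot be told apart, here and in every marker list that follows.

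Paneth cell genes were present in the colon tumour too. Lyz1, lysozyme of Paneth cells, was 1711 and 881 FPKM in the duodenal tumours and 748 FPKM in the colon tumour, a log2 difference of 0.71 ± 0.96 that did not pass the test (adjusted p = 0.595). Of 17 Paneth genes 4 were higher and 1 lower, and without duodenal tumour 1 none was higher and 2 were lower. The defensins Defa26 and Defa3 were among the higher ones (3.93 ± 1.29 and 1.71 ± 0.57), and members of that family are near copies. Lyz1 also has a close paralog in Lyz2. For the Paneth counts and the goblet and tuft cell counts that follow, the shares over all genes tested are 17.5% higher and 19.1% lower. Of 17 goblet genes 2 were higher and 1 lower, but 0 higher and 2 lower after quantile normalisation and none without duodenal tumour 2. Of 11 tuft cell genes 1, Trpm5, was higher, and 3 were without duodenal tumour 2.

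Stomach and Brunner gland genes were higher in part, 5 of 14 with 0 lower and a median log2 difference of 2.70. Tff2, a trefoil peptide of gastric and Brunner glands, was 131 and 50.9 FPKM in the duodenal tumours and 1.12 FPKM in the colon tumour (5.40 ± 1.41, adjusted p = 0.0102). Tff1 was 118 and 42.1 FPKM in the duodenal tumours and 1.90 FPKM in the colon tumour (4.85 ± 1.36, adjusted p = 0.0151). Gkn3 and Pgc, both products of stomach glands, differed by 4.81 ± 1.45 and 3.30 ± 1.09. From run 2 alone 8 were higher, without duodenal tumour 1 it was 2 and without duodenal tumour 2 it was 9. Whether stomach or Brunner gland tissue was taken along with a duodenal tumour was not tested. Beside the Reg and other antimicrobial counts that follow, the shares over all genes tested are 17.5% higher and 19.1% lower. Of 7 Reg genes Reg1 and Reg3a were higher, and of 15 other antimicrobial genes 2 were higher and 4 lower, among the lower ones Wfdc2 (-4.23 ± 0.76) and Lcn2 (-2.33 ± 0.68); 2 were lower without duodenal tumour 2.

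Wnt and stem cell genes showed few calls. Over all genes tested 17.5% were higher and 19.1% lower, and the share of Wnt target genes called lower was near the latter. Of 24 Wnt target genes 5 were lower and 0 higher, with a median log2 difference of -1.02, and the count was 13 without duodenal tumour 1 and 2 without duodenal tumour 2. Dkk2, a Wnt modulator, was 0.899 and 0.186 FPKM in the duodenal tumours and 8.46 FPKM in the colon tumour (-2.66 ± 0.54, adjusted p = 0.00266). Of 18 stem cell genes Olfm4 was higher, at 187 and 111 FPKM in the duodenal tumours and 2.12 FPKM in the colon tumour (5.84 ± 0.76, adjusted p = 1.49e-04). Lgr5, the crypt base marker, was 3.05 and 1.03 FPKM in the duodenal tumours and 9.85 FPKM in the colon tumour (-1.92 ± 0.73, adjusted p = 0.0541). Aqp4 and Slc12a2, which also stand among the colonocyte genes, were the 2 lower members, and 5 were lower without duodenal tumour 1. Of 20 proliferation genes 1, Mcm6, was higher, against 2 without duodenal tumour 1 and 0 without duodenal tumour 2.

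Genes of the regenerative, fetal-like state of injured epithelium were lower, 11 of 19 with 0 higher and a median log2 difference of -1.21. Ly6a, the Sca-1 antigen, was 53.5 and 36.8 FPKM in the duodenal tumours and 643 FPKM in the colon tumour (-3.86 ± 0.42, adjusted p = 4.92e-05). Anxa1 was 107 and 163 FPKM in the duodenal tumours and 513 FPKM in the colon tumour (-1.96 ± 0.22, adjusted p = 5.46e-05). Ctgf, a target of YAP signalling that stroma also makes, was 7.43 and 4.44 FPKM in the duodenal tumours and 46.6 FPKM in the colon tumour (-2.82 ± 0.44, adjusted p = 4.97e-04). Both duodenal tumours lay below the colon tumour in each. The normal Cftr knockout duodenum also stood below the normal colon over this list, with a median log2 difference of -0.73. The median departure of the tumour difference from the normal one was -0.47. The 3 members whose departure passed the test, Anxa1, Anxa3 and Il1rn, departed positively (2.14, 2.21 and 2.11).

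The colon tumour carried more inflammatory transcripts. Of 22 inflammatory genes 16 were lower in the duodenal tumours and 0 higher, with a median log2 difference of -2.26, and their summed level was 116 and 138 FPKM in the duodenal tumours and 1653 FPKM in the colon tumour. Saa3 was 24.3 and 29.6 FPKM in the duodenal tumours and 246 FPKM in the colon tumour (-3.18 ± 0.41, adjusted p = 1.35e-04). S100a8, a subunit of the neutrophil protein calprotectin, was 10.9 and 13.7 FPKM in the duodenal tumours and 223 FPKM in the colon tumour (-4.19 ± 0.83, adjusted p = 0.00214). The chemokines Cxcl3, Cxcl5 and Ccl2 differed by -3.21 ± 0.56, -3.71 ± 0.76 and -2.49 ± 0.44. Neutrophil markers were lower in 11 of 13, at a summed 60.0 and 59.0 FPKM in the duodenal tumours and 545 FPKM in the colon tumour; Mmp8 was under 1 FPKM in all 3. Macrophage and monocyte markers were lower in 13 of 15 with a median of -1.03, led by Ccr2 (-1.24 ± 0.14, adjusted p = 6.57e-05) and Cd14 (-2.49 ± 0.31, adjusted p = 1.13e-04).

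Lymphocyte genes went both ways by the number called, where over all genes tested 17.5% were higher and 19.1% lower. Of 19 T cell genes 8 were higher and 1 lower, at a summed 183 and 204 FPKM in the duodenal tumours and 37.3 FPKM in the colon tumour, and 4 were higher without duodenal tumour 2. Gzma, a granzyme, was 82.7 and 92.8 FPKM in the duodenal tumours and 1.43 FPKM in the colon tumour (5.22 ± 0.59, adjusted p = 5.47e-05). Cd8a was 3.73 and 4.50 FPKM in the duodenal tumours and 0.316 FPKM in the colon tumour (1.96 ± 0.26, adjusted p = 1.84e-04). Gzmb and Ccl5 followed (2.55 ± 0.39 and 2.62 ± 0.59), while Cd8b1, Cd5 and Gzmk were under 1 FPKM in all 3 tumours. The B and plasma cell genes summed to 1156 and 775 FPKM in the duodenal tumours and 674 FPKM in the colon tumour, against the direction of their count below. The MHC class II genes summed to 684 and 1095 FPKM in the duodenal tumours and 1071 FPKM in the colon tumour. Of 15 B and plasma cell genes 6 were lower and of 11 MHC class II genes 3 were, and in both lists none was lower with either duodenal tumour left out.

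Stromal genes were lower. Beside the counts given here, the shares over all genes tested are 17.5% higher and 19.1% lower. All 16 fibroblast and matrix genes passed the test, with a median log2 difference of -2.10 and a summed level of 433 and 263 FPKM in the duodenal tumours and 1669 FPKM in the colon tumour. Postn, a matrix protein of activated fibroblasts, was 6.94 and 2.09 FPKM in the duodenal tumours and 72.3 FPKM in the colon tumour (-3.90 ± 0.43, adjusted p = 5.00e-05). Col3a1 was 62.3 and 35.8 FPKM in the duodenal tumours and 308 FPKM in the colon tumour (-2.68 ± 0.32, adjusted p = 8.13e-05). Thy1 and Sparc differed by -2.02 ± 0.21 and -2.14 ± 0.26. Of 12 endothelial genes 7 were lower, and of 13 neuron and glia genes 6 were lower and 1 higher. Without duodenal tumour 2 these counts were 4 and 0. Of 15 smooth muscle genes 4 were lower, at a summed 753 and 194 FPKM in the duodenal tumours and 1512 FPKM in the colon tumour, 8 without duodenal tumour 1 and 0 without duodenal tumour 2. By their medians these lists went the same way as the inflammatory and regenerative lists above. The part of tissue makeup in those results and in the epithelial ones was not tested. Of 14 epithelial genes 3, Vil1, Krt20 and Cdx2, were higher and 0 lower, but 2 higher and 2 lower after quantile normalisation. They stood at a summed 12621 and 15186 FPKM in the duodenal tumours and 9067 FPKM in the colon tumour; Vil1 shares exons with Usp37.

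**Figure D4:**
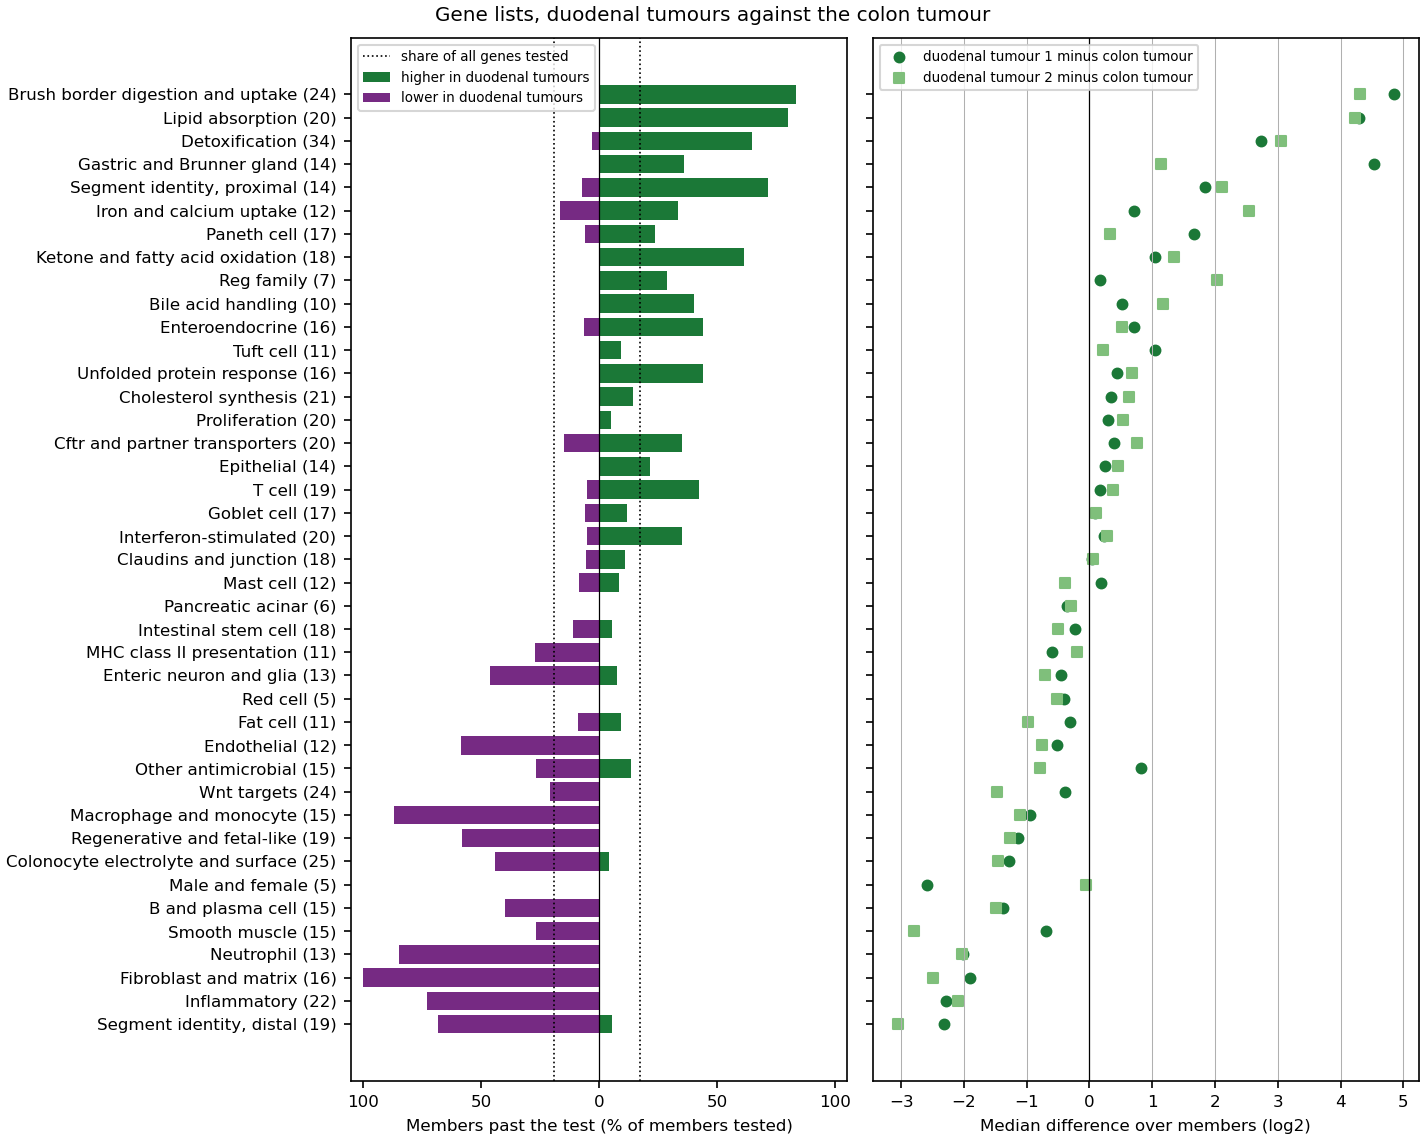
For each gene list, with its number of genes tested in brackets, the left panel gives the percentage of members past the test (green to the right for higher, purple to the left for lower in the duodenal tumours) with dotted lines at the 17.5% and 19.1% of all genes. The right panel gives the median log2 difference of each duodenal tumour from the colon tumour; brush border (4.81 for both together) and lipid lists stand at one end and distal (-2.52), inflammatory and fibroblast lists at the other.

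Counts of the remaining lists follow, where over all genes tested 17.5% were higher and 19.1% lower. Of 20 interferon-stimulated genes 7 were higher and 1 lower, and 3 were higher with either duodenal tumour left out. Of 16 genes of the unfolded protein response 7 were higher, but 0 without duodenal tumour 2 or after quantile normalisation. Of 21 cholesterol synthesis genes 3 were higher (1 without duodenal tumour 2), and of 18 claudin and junction genes 2 were higher and 1, Cldn8, lower (-4.71 ± 0.52, adjusted p = 5.00e-05), with 4 lower after quantile normalisation. Of 12 mast cell and 11 fat cell genes 1 each was higher and 1 lower, and 3 mast cell genes were lower without duodenal tumour 1. In 6 pancreatic acinar and 5 red cell genes 0 passed by limma, and at an unadjusted p under 0.05 the number was also 0, and the acinar markers Ctrl, Ctrb1, Prss2 and Try5 and the fat markers Adipoq and Plin1 were under 1 FPKM in all 3 tumours. In every list where the count was 0 in a direction, it was also 0 there at an unadjusted p under 0.05, except for 2 higher regenerative genes, 1 higher B cell gene and 1 lower Y-linked gene, Ddx3y, of the list that tells male from female. Leaving out the run 1 libraries of duodenal tumour 1 and the colon tumour raised the calls over all genes to 5350 and kept the counts of 40 of the 41 lists within 1.5-fold.

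In the normal organs of Cftr knockout mice, duodenum against colon gave 6430 calls, 45.6% of the genes tested. Of the 5151 tumour calls 3476 were also called there in the same direction, which is 67.5% of the tumour calls and 54.1% of the normal ones, and 40 were called in the opposite direction. These 2 comparisons share no samples, but both come from the same fit and use the same spread for each gene. Their calls are therefore not independent. The labels say that the normal colon was whole tissue and the normal duodenum epithelium, while the design text states the reverse, so organ and preparation cannot be told apart in the normal tissue.

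The tumour difference departed from the normal difference in 388 genes, 2.75% of those tested. The departure was positive in 155 (1.10%) and negative in 233 (1.65%). In 162 of the 388 the tumours stood further apart than the normal organs, in 226 closer together, and in 157 the 2 differences had opposite signs. Among the 233 negative ones the colon tumour lay above both normal colons in 222, and among the 155 positive ones both duodenal tumours lay above both normal duodenums in 132. These genes were selected by a difference made of the same values, which favours such counts. The counts are a description, and the shares over all genes were not taken. Leaving out 1 specimen moved the 388 to between 63 and 554, with 63 reached without normal colon replicate 1 and 554 without normal duodenum replicate 2; it was 133 without normal duodenum replicate 1, 150 without normal colon replicate 2 and 151 without duodenal tumour 2.

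Paneth cell products led the negative side. Lyz1 was 1711 and 881 FPKM in the duodenal tumours and 748 FPKM in the colon tumour, whereas it was 2311 and 2981 FPKM in the normal duodenum and 10.1 and 11.2 FPKM in the normal colon. The difference between the 2 organ differences was -7.13 ± 1.24 on the log2 scale (adjusted p = 0.015). Mmp7, the protease that activates mouse Paneth defensins and is also made by Apc-mutant tumours, was 115 and 71.6 FPKM in the duodenal tumours and 224 FPKM in the colon tumour, whereas it was 75.2 and 122 FPKM in the normal duodenum and 1.85 and 0.665 FPKM in the normal colon (-6.78 ± 0.98, adjusted p = 0.00656). The colon tumour lay below all duodenal samples in Lyz1 and above all of them in Mmp7. In both genes it stood far above the normal colon. Mmp7 overlaps AV064505. The ribonuclease Rnase1 and the gene AI747448 had the same shape (-5.97 ± 1.00 and -5.46 ± 0.93).

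Aldh1a3, which makes retinoic acid, was 34.2 and 30.8 FPKM in the duodenal tumours and 127 FPKM in the colon tumour, whereas it was 14.6 and 15.9 FPKM in the normal duodenum and 1.57 and 1.56 FPKM in the normal colon (-4.60 ± 0.80, adjusted p = 0.015). Arg1, arginase of myeloid cells and some epithelia, was 3.81 and 1.83 FPKM in the duodenal tumours and 46.8 FPKM in the colon tumour, whereas it was 1.16 and 0.947 FPKM in the normal duodenum and 0.473 and 0.265 FPKM in the normal colon (-4.33 ± 0.61, adjusted p = 0.00611). Both were highest in the colon tumour. Of the 13 neutrophil genes 4 were also negative here.

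The stomach genes Anxa10 and Ctse, a gastric protease, led the positive side. Anxa10 departed by 6.42 ± 1.41 (adjusted p = 0.0329), from the values above and 0 and 0.0722 FPKM in the normal colon. Ctse was 168 and 263 FPKM in the duodenal tumours and 58.9 FPKM in the colon tumour, whereas it was 1.98 and 1.77 FPKM in the normal duodenum and 22.9 and 31.5 FPKM in the normal colon (5.10 ± 0.90, adjusted p = 0.0158). B4galnt2, a glycosyltransferase, was 167 and 249 FPKM in the duodenal tumours and 9.20 FPKM in the colon tumour, whereas it was 194 and 218 FPKM in the normal duodenum and 185 and 177 FPKM in the normal colon (4.15 ± 0.99, adjusted p = 0.046). Of these samples the colon tumour alone was low in this gene, which overlaps Gm11534. Cyp2d9 departed by 3.95 ± 0.90; it was 5.50 FPKM in the colon tumour and 56.1 and 97.4 FPKM in the normal colon. Sprr2a1 and Sprr2a2, which share exons and cannot be counted apart, departed by 4.24 ± 0.68 and 4.17 ± 0.66. Anxa10, B4galnt2 and Cyp2d9 passed narrowly and missed the threshold, at adjusted p between 0.0507 and 0.125, with most single specimens left out. Without normal colon replicate 1, Lyz1, Rnase1, AI747448, Aldh1a3 and Ctse missed it as well, at 0.0543 or, for Ctse, 0.0512.

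**Figure D5:**
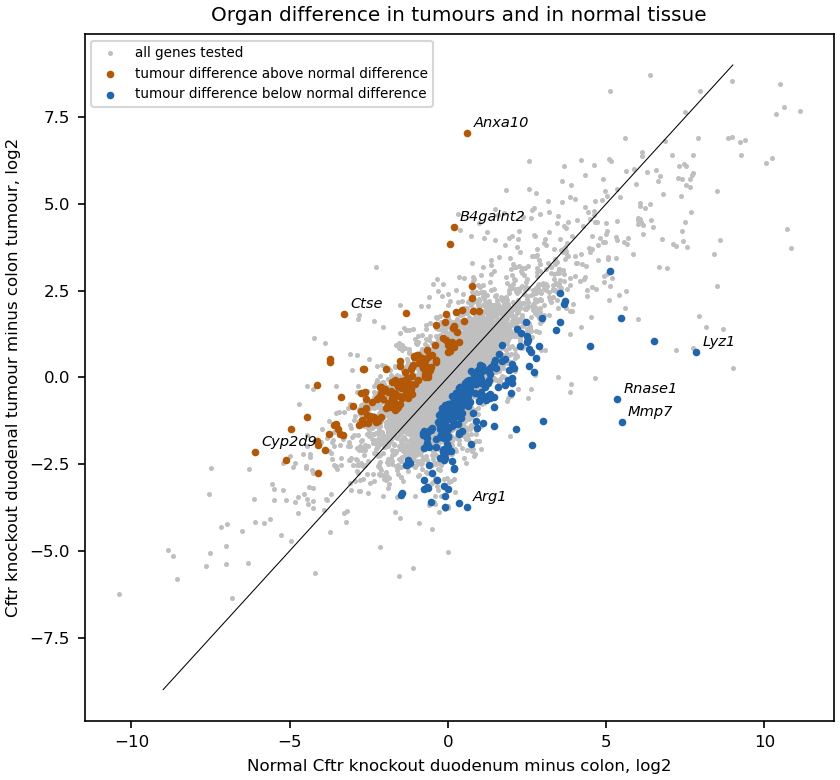
Log2 difference of duodenal tumours minus colon tumour (y axis) against normal Cftr knockout duodenum minus colon (x axis), one point per gene tested; orange and blue points are the 155 and 233 genes whose tumour difference was above or below the normal one. Lyz1 and Mmp7 lie far to the right of the diagonal, which marks equal differences, and Anxa10 lies far above it.

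In ApcMin Cftr heterozygous mice, duodenal against colon tumours gave 5644 calls (40.0% of genes tested), and 3260 of the 5151 Cftr knockout calls were among them in the same direction, which is 63.3% of the Cftr knockout calls and 57.8% of the heterozygous ones. The 5644 calls and the departures below come from a fit of run 1 libraries alone, since the heterozygous tumours were read in run 1. The 5151 Cftr knockout calls are those of both runs. The FPKM values of the Cftr knockout tumours printed below are also means of both runs, so they do not give the run 1 departures exactly. Heterozygous duodenal tumour 2 held ileal transcripts: Fabp6, the ileal bile acid carrier, was 8.64 and 2.97 FPKM in the Cftr knockout duodenal tumours, against 1.02 and 13742 FPKM in the heterozygous ones. The Cftr knockout organ difference departed from the heterozygous one in 23 genes, 0.163% of those tested, and 2704 genes did so at an unadjusted p under 0.05. With a pseudocount of 0.1, and with the compared groups alone, 0 genes passed by limma, where 2632 and 1986 had an unadjusted p under 0.05. There were 120 calls with run 2 libraries for the Cftr knockout tumours. In fits without 1 specimen, 1136 passed without heterozygous duodenal tumour 1, where the tumour with ileal transcripts is the only heterozygous duodenal one left, and 29 without that tumour. The number was 525 without Cftr knockout duodenal tumour 1, 13 without heterozygous colon tumour 1 and 12 without heterozygous colon tumour 2.

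The genes on the positive side were low in all 3 Cftr knockout tumours and present in the heterozygous colon tumours. Ngp, a neutrophil granule protein, was 0.0603 and 0 FPKM in the Cftr knockout duodenal tumours and 0.111 FPKM in the Cftr knockout colon tumour, whereas it was 0.0787 and 0.205 FPKM in the heterozygous duodenal tumours and 23.5 and 30.2 FPKM in the heterozygous colon tumours (4.46 ± 0.21, adjusted p = 1.66e-04). Stfa2, Stfa2l1, Chi3l3, Ifitm6 and 1100001G20Rik had the same shape (3.76 ± 0.30, 2.68 ± 0.22, 3.08 ± 0.23, 3.36 ± 0.30 and 3.60 ± 0.39). On the negative side Lum, a collagen-binding proteoglycan, was 11.2 and 5.19 FPKM in the Cftr knockout duodenal tumours and 34.9 FPKM in the Cftr knockout colon tumour, whereas it was 10.6 and 8.09 FPKM in the heterozygous duodenal tumours and 3.30 and 3.49 FPKM in the heterozygous colon tumours (-3.20 ± 0.45, adjusted p = 0.0469). The matrix genes Serpinf1 and Pcolce (-1.98 ± 0.19 and -1.78 ± 0.20) and the neuropeptide gene Penk (-2.97 ± 0.40) were likewise highest in the Cftr knockout colon tumour. Bpifb5 was 0.939 and 0 FPKM in the Cftr knockout duodenal tumours and 0.230 FPKM in the Cftr knockout colon tumour, whereas it was 81.9 and 29.1 FPKM in the heterozygous duodenal tumours and 0.400 and 0.521 FPKM in the heterozygous colon tumours (-5.12 ± 0.69, adjusted p = 0.0462). Pitx1, a homeobox factor, departed by -1.81 ± 0.22. Ngp, Stfa2, Stfa2l1, Chi3l3, Ifitm6 and Serpinf1 passed in every fit that left out 1 specimen, and the other 6 did not.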

How the data were processed

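RNA of 23 specimens (68 columns, up to 2 runs of 2 lanes) was sequenced after polyA selection. The deposited values are FPKM per gene; tools listed in the submitters' processing notes are TopHat2 2.0.13, FastQC and Cuffnorm, with the build mm10 and no settings. Column sums differ, so the values are not TPM, and no counts were given. Here each specimen's columns were averaged as log2(FPKM + 1), with a pseudocount of 1. A row was tested where 2 or more specimens reached 1 FPKM, which 14098 of 23356 rows did. Of the row names 27 are dates in place of gene symbols, and 21 of those rows were tested. limma 3.58.1 (lmFit, eBayes with trend, R 4.3.3) was fitted to all 12 groups, with Benjamini-Hochberg adjustment over all genes and a threshold of 0.05. For the heterozygous comparison it was fitted only to the groups read in run 1. The 2 wildtype duodenum specimens differed by about the spread between lanes (0.98 and 1.21 times it in the 2 runs, against 3.35 to 6.22 times for the other groups compared). They counted as 1 sample, which left 10 residual degrees of freedom, and 6 in the run 1 fit of the heterozygous comparison.

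Named genes are the 12 with the largest positive and the 12 with the largest negative change among those past the threshold, on the same side in both duodenal tumours and both runs and at 5 FPKM or more in the higher group; for each difference of differences they are the 6 largest each way, and for each list up to 6 members with the smallest p. Cftr, Apc and markers near 0 were added. Members and lists were chosen with earlier results of these data known. In simulated data at this design, 72 of 100 genes changed 2-fold and 93 of 100 changed 4-fold were recovered among 14098, with 9 false calls. The changed genes were drawn only from those above 5 FPKM in the colon tumour. The simulated spread was normal, independent between specimens and the same for the colon tumour as for the other groups. It therefore cannot check the arm without a replicate or the tumours of a shared animal. Alternatives were another pseudocount, no filter, quantile normalisation, averaging as FPKM, an animal block, single runs, the compared groups alone, and leaving out each specimen. Animal numbers of the normal tissues are shared between organs, and same-numbered specimens deviated together with a correlation of 0.0304 in Cftr knockout and 0.0268 in wildtype mice. Values of some genes are not reported here.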

Additional observations from a re-analysis of the deposited data

Results flagged for a closer look

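The tested difference between the tumour comparison and the normal tissue comparison (duodenal minus colon in each, limma, adjusted p under 0.05) flagged 29 of the genes named or listed here. On the log2 scale the largest positive values were those of Anxa10 (6.42), Ctse (5.10), Sprr2a1 (4.24), Sprr2a2 (4.17), B4galnt2 (4.15) and Cyp2d9 (3.95). Smaller positive values were found for Ano1 (2.29), Anxa3 (2.21), Anxa1 (2.14), Il1rn (2.11), Ern2 (1.97), Krt18 (1.70) and Ugt2b34 (1.53). The largest negative departures were those of Lyz1 (-7.13), Mmp7 (-6.78), Rnase1 (-5.97), AI747448 (-5.46), Aldh1a3 (-4.60), Arg1 (-4.33) and Defa3 (-3.76). Genes of neutrophils and inflammation were negative too: Mmp9 (-3.64), Cxcl3 (-3.22), Il1r2 (-2.65), Saa3 (-2.55), Csf3r (-2.26) and Cxcr2 (-2.10). Sp5, a Wnt target, departed by -2.22, Thy1 by -1.64 and Egfl7 by -1.11.

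The tested difference between the Cftr knockout and the ApcMin Cftr heterozygous tumour comparison flagged 13 genes. Positive were Ngp (4.46), Stfa2 (3.76), 1100001G20Rik (3.60), Ifitm6 (3.36), Chi3l3 (3.08), Stfa2l1 (2.68) and Mmp8 (2.36). Negative were Bpifb5 (-5.12), Lum (-3.20), Penk (-2.97), Serpinf1 (-1.98), Pitx1 (-1.81) and Pcolce (-1.78). No group here had the 4 specimens that a search for a specimen far from the others needs.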

How the results depend on the processing

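The 5151 calls between the duodenal tumours and the colon tumour became 1719 with the compared groups alone, which leaves 1 residual degree of freedom, and 3292 to 4763 when a duodenal tumour was left out. The 388 departures from the normal organ difference became 589 with no filter, 739 with the wildtype duodenum as 2 specimens, 695 with the compared groups alone and 785 from run 1 alone, and ran between 63 and 554 with 1 specimen left out. The 23 departures from the heterozygous tumours became 0 with a pseudocount of 0.1 and with the compared groups alone, 244 with no filter, 40 after quantile normalisation, 224 with the wildtype duodenum as 2 specimens and 120 with run 2 libraries for the Cftr knockout tumours, and ran between 12 and 1136 with 1 specimen left out. The alternative with run 2 libraries, and the ones that take the spread from tumour groups alone or leave out the run 1 libraries of 2 tumours, were chosen after seeing the data. The causes were not tested. The replicate block with animal as a random effect (correlation -0.177) gave 4989, 314 and 30 calls; normal tissues pair by animal number, and the block ended the call of B4galnt2 against normal tissue (adjusted p = 0.0508) and of no other named gene. All 5151 calls kept their direction under every alternative except quantile normalisation, where 5094 did. List medians changed sign under some alternative for goblet, antimicrobial, mast cell, claudin and epithelial genes. With 1 colon tumour and no counts, what depth limits in low genes is unknown.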

Other observations

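The 2 duodenal tumours also differed from each other, a contrast that no comparison above makes. Of 9220 genes at 5 FPKM or more in either, 108 differed by over 4-fold, 69 higher in duodenal tumour 1 and 39 higher in duodenal tumour 2; with 1 specimen on each side this is a description with no test, and the genes named were chosen after their values were seen. Duodenal tumour 1 held 174 FPKM and duodenal tumour 2 4.61 FPKM of Gkn1, a gastrokine of stomach surface cells, and 132 and 0.721 FPKM of its relative Gkn2. Gsdmc4, of the gasdermin C cluster of near-identical genes, was 492 FPKM in duodenal tumour 1 and 1.27 FPKM in duodenal tumour 2. In the other direction, S100g, the calcium-binding protein of duodenal uptake, was 53.4 FPKM in duodenal tumour 1 and 3545 FPKM in duodenal tumour 2. The iron exporter Slc40a1 was 27.6 FPKM in duodenal tumour 1 and 348 FPKM in duodenal tumour 2. Xist and the Y-linked genes also separated the 2 tumours, which came from different animals.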
